A study of Mus musculus with 12 samples.

Results

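Ugdh and 6 genes of hyaluronan synthesis, breakdown and binding (Has1, Has2, Has3, Hyal2, Cd44 and Vcan) were followed through RNA sequencing of mouse testis. The genes were chosen by symbol, and all 7 were found among the 20718 genes of the deposited table. Ugdh was included because its level was already known to differ between groups. The levels and fold changes of these 7 genes are therefore given as a description, without printed p-values. Calls among them are stated only to place them among all genes. A filter on low counts kept 5 of the 7, and Has1 and Has2 did not pass it.

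The 12 libraries came from total RNA of testes of F0 mice, of a strain given in the labels as IRC mouse, in 4 groups of 3 libraries. In 8276OV the testes received a virus for overexpression of lncRNA8276, a long noncoding RNA, and in 8276KD a virus that inhibited it. The groups 5NC and 3NC are not spelled out in the labels and were read as control viruses. The main comparisons were 8276OV against 5NC and 8276KD against 3NC. This pairing follows the listing of groups in the design text and is an inference, so each virus group was set against the other control too. The virus, the promoter in it, the age of the mice and the cells it enters are not stated in the labels, and the level of lncRNA8276 itself was not analysed here. Whether the 3 samples of a group are different animals is not stated, and p-values therefore reflect only the spread among the samples, which may be technical.

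Hyaluronan is a long unbranched sugar polymer of the extracellular matrix. UGDH oxidises UDP-glucose to UDP-glucuronate, and the membrane enzymes HAS1, HAS2 and HAS3 join UDP-glucuronate with UDP-N-acetylglucosamine into the chain. Hyaluronidases such as HYAL2 cut it, CD44 is its main cell surface receptor, and the proteoglycan versican, encoded by Vcan, binds it in the matrix. In the testis the polymer lies in the tissue between the tubules, and germ cells make their own hyaluronidases, among them SPAM1 and HYAL5 of the sperm surface, which act on the hyaluronan-rich layer around the egg.

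Libraries held 15448442 to 16355720 estimated reads, and 18611 to 18788 genes had a read. A gene with no read in a library could still have had up to 3 reads, or 0.183 to 0.194 CPM (counts per 1000000 reads after TMM scaling of the library size), a limit that covers counting error only. The first principal component set apart 3NC replicate 2 and 8276OV replicates 1 and 3 (scores of 29, 30.2 and 30.3). Germ cell, Sertoli and Leydig cell markers were all detected: 5 spermatid markers summed to 11610 to 16160 CPM and 6 Leydig markers to 1260 to 3022 CPM per library. The 5 listed epididymis markers, of which 3 are in the table, summed to 0.749 to 12.2 CPM in 8276OV, 1.47 to 10.8 CPM in 8276KD, 14 to 121 CPM in 5NC and 0.835 to 7.29 CPM in 3NC. In this bulk tissue, fewer cells of a type and less RNA per cell cannot be told apart.

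Levels of the 7 genes were modest or low. On a per-length scale, as the mean FPKM over all 12 libraries, Ugdh stood at 2.95, Hyal2 at 1.64, Has3 at 1.08, Cd44 at 0.19, Vcan at 0.15, Has1 at 0.143 and Has2 at 0.0158. Ugdh thus lay near the middle of the table, above 49.1% of genes, and Has2 above 6.25%. For scale, the sperm hyaluronidase Hyal5 had group means of 72.5 FPKM in 8276OV, 68.5 in 8276KD, 60.3 in 5NC and 77.2 in 3NC.

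Ugdh, the enzyme gene for UDP-glucuronate (gene 22235, mm10 chr5:65413207-65435842, minus strand), was high in 3NC and low in the other groups. It had 6.47, 3.57 and 5.12 CPM in 8276OV and 3.82, 4.34 and 4.27 CPM in 8276KD. It had 5.07, 4.34 and 4.10 CPM in 5NC, against 11, 16.9 and 11.5 CPM in 3NC. Every 3NC library lay above each of the other 9, and the 8276OV, 8276KD and 5NC libraries overlapped each other. The share of all genes with 3NC above the other 9 was not counted. That pattern requires 8276OV and 3NC not to overlap, as was so for 7.76% of genes tested. Group means were 5.06 ± 1.45 CPM in 8276OV, 4.14 ± 0.281 in 8276KD, 4.50 ± 0.504 in 5NC and 13.1 ± 3.26 in 3NC (SD, n = 3 each). These rest on 240 reads in 8276OV, 194 in 8276KD, 213 in 5NC and 623 in 3NC.

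The 8276KD against 3NC comparison asks which genes respond to less lncRNA8276. Ugdh was 3.16-fold lower there, with a log2 fold change of −1.66 ± 0.22 (SE; 95% interval −2.12 to −1.20). Ugdh was also low in 5NC against 3NC, where both groups are controls, with −1.54 ± 0.21 (2.91-fold lower; −2 to −1.08), and in 8276OV against 3NC, with −1.38 ± 0.21. These comparisons share the 3NC libraries and are not independent of each other. Comparisons without 3NC gave values near 0: 0.17 ± 0.22 for 8276OV against 5NC (−0.31 to 0.64) and −0.12 ± 0.23 for 8276KD against 5NC (−0.60 to 0.36). 3NC replicate 2 was the highest library, and without it the log2 fold changes were −1.44 in 8276KD and −1.31 in 5NC. Expressed per length, Ugdh averaged 2.25 FPKM in 8276OV, 1.79 in 8276KD, 1.99 in 5NC and 5.78 in 3NC.

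The quasi-likelihood test of edgeR was run over 16320 genes, and those with an adjusted p (Benjamini-Hochberg) under 0.05 were called. In 8276KD against 3NC, 1 of the 5 genes that passed the filter was called, Ugdh, beside 0.178% of all genes tested (29 genes). In 5NC against 3NC it was again 1, Ugdh, beside 0.362% (59 genes), and in 8276OV against 3NC 1, Ugdh, beside 0.319%. In 8276OV against 5NC edgeR called 0 of 5 beside 0% of all genes. There 0 of the 5 had an unadjusted p under 0.05, limma on FPKM and DESeq2 called 0 of the 5, and over all genes DESeq2 called 46 and 1697 had an unadjusted p under 0.05 in edgeR. In 8276KD against 5NC edgeR called 0 of 5 beside 0.049%. Since Ugdh was chosen with these comparisons known, its calls are stated only to place it among all genes. Of the 5 genes, Ugdh alone had groups that did not overlap in 8276KD against 3NC and in 5NC against 3NC, as was so for 16.5% and 16.9% of genes tested, and in 8276OV against 3NC, as was so for 7.76%. The 5NC against 3NC call was lost without 5NC replicate 3 (log2 fold change −1.48).

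**Figure D1:**
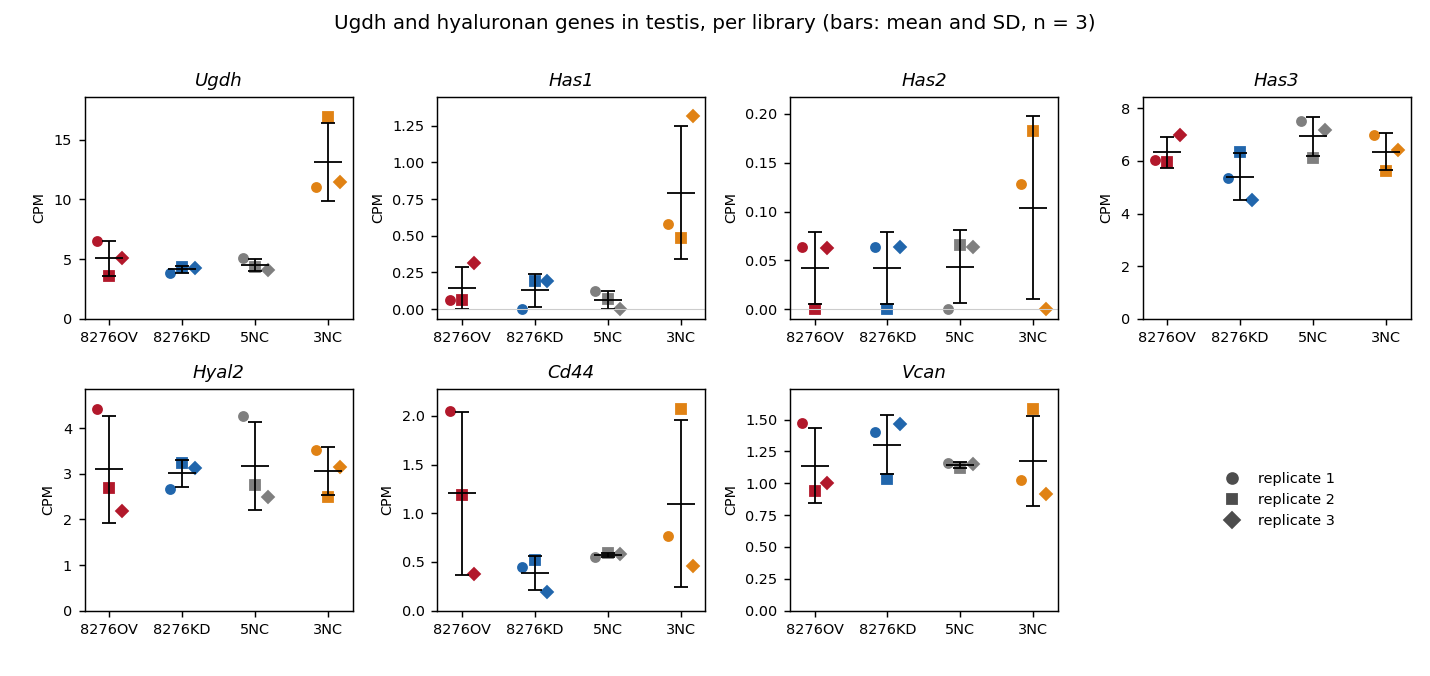
Level of each of the 7 genes in every library, in CPM, for 8276OV, 8276KD, 5NC and 3NC (symbols mark replicate numbers, bars the mean and SD of 3 libraries). Ugdh lies between 11 and 16.9 CPM in 3NC and between 3.57 and 6.47 CPM in the other 9 libraries, and Has1 is likewise highest in 3NC.

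Among the hyaluronan synthases, Has3 supplied most of the reads and Has1 was found mainly in 3NC. Has1 (gene 15116, chr17:17833691-17855589, minus strand) had 1, 1 and 5 reads in 8276OV, 0, 3 and 3 in 8276KD, 2, 1 and 0 in 5NC, against 9, 8 and 20 in 3NC. The lowest 3NC library, with 8 reads, lay above the highest library of the other groups, with 5. Scaled for library size, the ratio of Has1 reads was 0.163 in 8276KD over 3NC (95% counting interval 0.0563 to 0.39), 0.0827 in 5NC over 3NC (0.0163 to 0.261) and 0.189 in 8276OV over 3NC (0.071 to 0.429). These intervals cover counting error only, the gene was not tested because of its low counts, and 20 of the 37 reads in 3NC came from replicate 3. Between 8276OV and 5NC (7 and 3 reads) the interval of the ratio ran from 0.52 to 13.7, so no difference was detectable at this depth.

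Has2 (chr15:56665627-56694546, minus strand) had 11 reads in all 12 libraries together, 2 in 8276OV, 2 in 8276KD, 2 in 5NC and 5 in 3NC. It had at most 3 reads in a library, and no difference between groups could be seen at this depth. Has3 (chr8:106870242-106882902, plus strand) had 6.03, 5.95 and 6.99 CPM in 8276OV, 5.35, 6.35 and 4.53 CPM in 8276KD, 7.51, 6.11 and 7.17 CPM in 5NC and 7, 5.60 and 6.43 CPM in 3NC. The groups overlapped in every comparison. Log2 fold changes were −0.13 ± 0.16 in 8276OV against 5NC (95% interval −0.48 to 0.21), −0.23 ± 0.16 in 8276KD against 3NC (−0.58 to 0.12) and 0.13 ± 0.16 in 5NC against 3NC (−0.22 to 0.47). Against the other control, 5NC, Has3 had −0.36 ± 0.16 in 8276KD (−0.71 to −0.01) and was not called. The 3NC libraries lay inside the range of the other 9, unlike the reads of Ugdh and Has1.

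Per length, Has3 made up 93.2 ± 5.42% of the summed FPKM of the 3 synthases in 8276OV, 91.9 ± 5.83% in 8276KD, 96.3 ± 1.86% in 5NC and 72.8 ± 9.15% in 3NC (SD, n = 3 each). Has1 made up 5.69 ± 5.04% in 8276OV, 6.66 ± 5.96% in 8276KD, 2.58 ± 2.49% in 5NC and 25.5 ± 10.6% in 3NC. By library the Has1 share was 0% to 11.5% outside 3NC and 19.1%, 19.7% and 37.7% in 3NC. Has3 shares 352 exonic bases with Chtf8 on the opposite strand and Has2 shares 182 with the antisense transcript Has2os. Ugdh shares 158 with the gene model Gm43552 on its own strand. The labels do not state strandedness, so reads in the Has3 and Has2 stretches could belong to either gene. Reads in the Ugdh stretch could belong to either gene model whatever the strandedness.

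The 250 bases before a RefSeq start are shown for Ugdh, Has1 and the pathway genes Gfpt2 and Tnfaip6, described below. These 4 were picked because they had every 3NC library above the other 9 and, Has1 aside, were called lower in at least 1 comparison with 3NC. How many of all genes share this pattern was not counted. Sequences are from RefSeq, build GRCm38.p6, at chr5:65435843-65436092 (minus strand), chr17:17855189-17855438 (minus strand), chr11:49793905-49794154 (plus strand) and chr2:52037863-52038112 (plus strand). The Has1 window lies inside the gene span given above, so it precedes a start within that span and not its outer end. Capitals mark matches, on either strand, of 4 motifs: the cAMP response element TGACGTCA, the AP-1 site TGANTCA, the GC box GGGCGG and the E-box CACGTG.
Ugdh: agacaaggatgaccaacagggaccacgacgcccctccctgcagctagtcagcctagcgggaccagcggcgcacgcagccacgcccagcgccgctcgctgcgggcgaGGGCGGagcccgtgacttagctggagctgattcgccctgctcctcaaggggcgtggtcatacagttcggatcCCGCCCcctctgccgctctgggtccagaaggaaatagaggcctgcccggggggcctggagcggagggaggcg
Has1: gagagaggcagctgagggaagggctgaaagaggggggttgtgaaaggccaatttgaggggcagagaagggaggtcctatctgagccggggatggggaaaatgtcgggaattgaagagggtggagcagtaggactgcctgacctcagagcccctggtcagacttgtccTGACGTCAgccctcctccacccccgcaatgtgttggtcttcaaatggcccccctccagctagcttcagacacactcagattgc
Gfpt2: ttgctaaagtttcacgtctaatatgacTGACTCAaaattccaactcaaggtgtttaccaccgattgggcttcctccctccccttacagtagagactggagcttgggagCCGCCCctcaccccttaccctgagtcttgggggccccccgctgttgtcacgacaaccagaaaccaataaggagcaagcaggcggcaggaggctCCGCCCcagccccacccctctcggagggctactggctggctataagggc
Tnfaip6: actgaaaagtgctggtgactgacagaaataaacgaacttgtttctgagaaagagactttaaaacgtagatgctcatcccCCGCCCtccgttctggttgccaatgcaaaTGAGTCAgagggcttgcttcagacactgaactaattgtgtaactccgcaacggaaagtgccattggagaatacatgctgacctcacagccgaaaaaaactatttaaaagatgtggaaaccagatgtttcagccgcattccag

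Ugdh held 2 GC boxes, 144 and 72 bases before its start, and no match to the other motifs. Has1 held 1 cAMP response element 83 bases before the start used here. Gfpt2 held 1 AP-1 site at 223 bases and 2 GC boxes at 142 and 49 bases, and Tnfaip6 held 1 AP-1 site at 142 bases and 1 GC box at 171 bases. No match overlapped another. Over 32817 windows of the same length, 1.55% held the cAMP response element, 6.75% the AP-1 site, 32.7% the GC box and 6.02% the E-box. A promoter entry was found for 5 of the 7 genes: Hyal2 held 1 GC box, Vcan 2 and Cd44 none of the motifs. No motif was present in all 4 printed windows, and a match of letters is not a bound site.

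Hyal2, a widely expressed hyaluronidase held at the cell surface (chr9:107567873-107572778, plus strand), did not separate the groups. It had 4.42, 2.70 and 2.19 CPM in 8276OV, 2.68, 3.24 and 3.12 CPM in 8276KD, 4.27, 2.76 and 2.50 CPM in 5NC and 3.53, 2.50 and 3.15 CPM in 3NC. The highest libraries were replicate 1 of 8276OV and replicate 1 of 5NC. Log2 fold changes were −0.04 ± 0.27 in 8276OV against 5NC (95% interval −0.63 to 0.55), −0.02 ± 0.28 in 8276KD against 3NC (−0.61 to 0.57) and 0.06 ± 0.27 in 5NC against 3NC (−0.53 to 0.65). The intervals leave room for changes in either direction, so Hyal2 is not shown to be equal between groups.

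Vcan, the gene of the matrix proteoglycan versican (chr13:89655309-89743027, minus strand), had 23, 15 and 16 reads in 8276OV, 22, 16 and 23 in 8276KD, 19, 17 and 18 in 5NC and 16, 26 and 14 in 3NC. Means were 1.14 ± 0.293 CPM in 8276OV, 1.30 ± 0.232 in 8276KD, 1.14 ± 0.0229 in 5NC and 1.18 ± 0.356 in 3NC, and the groups overlapped. Log2 fold changes were −0.01 ± 0.3 in 8276OV against 5NC, 0.14 ± 0.29 in 8276KD against 3NC (95% interval −0.49 to 0.77) and −0.05 ± 0.3 in 5NC against 3NC. With so few reads only large differences in Vcan could have been seen.

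Cd44, the main hyaluronan receptor (gene 12505, chr2:102811141-102901669, minus strand), varied widely between libraries of 8276OV and of 3NC. It had 2.05, 1.19 and 0.375 CPM in 8276OV (32, 19 and 6 reads) and 0.446, 0.518 and 0.191 CPM in 8276KD (7, 8 and 3 reads). It had 0.55, 0.592 and 0.577 CPM in 5NC (9 reads each), against 0.771, 2.07 and 0.459 CPM in 3NC (12, 34 and 7 reads). 8276OV replicate 1 and 3NC replicate 2 stood far above the rest, and 8276OV replicate 3 was the second lowest of all libraries. The log2 fold change was 1.06 ± 0.6 in 8276OV against 5NC (95% interval −0.23 to 2.36), and 0.45 without 8276OV replicate 1. In 8276KD against 3NC it was −1.51 ± 0.65 (−2.90 to −0.12), and −0.67 without 3NC replicate 2. In 5NC against 3NC it was −0.95 ± 0.61, and −0.10 without 3NC replicate 2. Cd44 was called in none of these comparisons. In 8276KD against 5NC the groups did not overlap for Cd44, as was so for 13.7% of genes tested, with −0.56 ± 0.7.

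CD44 is abundant on leukocytes, so their markers are given beside it. The summed level of 7 macrophage and leukocyte markers was 115.4, 60.9 and 54.6 CPM in 8276OV and 35.6 to 43.7 CPM in 8276KD. It was 39.1 to 62.7 CPM in 5NC and 40.7 to 55.2 CPM in 3NC. All 7 markers were higher in 8276OV against 5NC by sign, with a median log2 fold change of 0.71, and 0 were called. The highest marker sum belonged to 8276OV replicate 1, also among the 2 highest for Cd44, and 3NC replicate 2 had the highest sum of its group at 55.2 CPM. 5NC replicate 1 had a sum of 62.7 CPM with Cd44 at 0.55 CPM. The part of leukocytes in the Cd44 values was not tested.

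**Figure D2:**
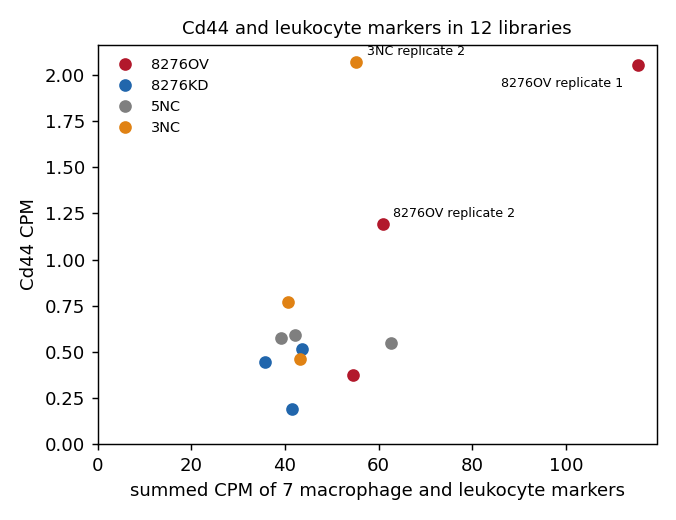
Cd44 level in CPM (vertical axis) against the summed CPM of 7 macrophage and leukocyte markers (horizontal axis), 1 point per library, coloured by group. 8276OV replicate 1 lies at 2.05 CPM with a marker sum of 115.4 CPM, and 3NC replicate 2 at 2.07 CPM with a marker sum of 55.2 CPM.

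**Figure D3:**
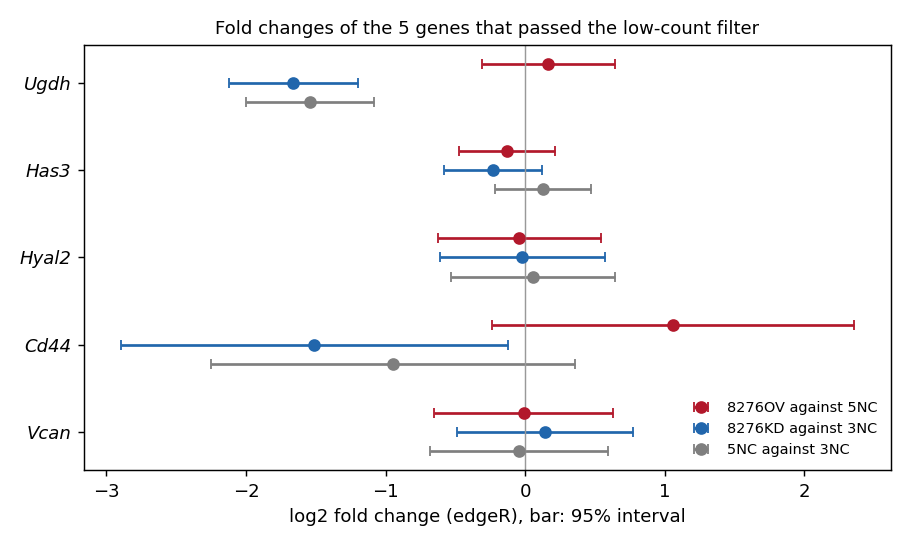
Log2 fold changes (points) with 95% intervals (bars) of the 5 genes that passed the filter on low counts, for 8276OV against 5NC, 8276KD against 3NC and 5NC against 3NC. The intervals of Ugdh lie below 0 in both comparisons with 3NC, and those of Has3, Hyal2 and Vcan cross 0 throughout.

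The wider pathway was read from 7 lists of 73 genes, of which 72 are in the table and 64 passed the filter. In 8276OV against 5NC edgeR called 0 of 64 (7 at an unadjusted p under 0.05, 5 higher and 2 lower; DESeq2 and limma on FPKM called 0). With replicate numbers as a block in a fit of those 6 libraries, 3 pathway genes were called, Hyal6, Msn and Tlr4, among 215 genes in all. This block was added after the data were seen, and whether the numbers mark pairs was not tested. The number of genes tested in that fit is not given here, so the 215 cannot be read as a share. In 8276KD against 3NC edgeR called 1 gene lower and 0 higher, beside 0.178% of all genes tested. In 5NC against 3NC it called 1 lower and 0 higher, beside 0.362%. In both it was Gfpt2. By sign alone, 42 were lower and 22 higher in 8276KD against 3NC, and 38 and 26 in 5NC against 3NC. The unadjusted p was under 0.05 for 2 genes on the higher side and 6 on the lower side in 8276KD against 3NC, and for 6 and 11 in 5NC against 3NC. Over all genes tested, 10.4% had an unadjusted p under 0.05 in 8276OV against 5NC, 6% in 8276KD against 3NC and 12.1% in 5NC against 3NC. The 7 of 64 in 8276OV against 5NC thus lie near the background. The 8 of 64 in 8276KD against 3NC and 17 of 64 in 5NC against 3NC are larger shares than those over all genes. No set test was run. The median log2 fold change over the 64 genes was 0.08 in 8276OV against 5NC, −0.13 in 8276KD against 3NC and −0.04 in 5NC against 3NC, against −0.002, −0.002 and 0.01 over all genes tested. In 8276OV against 3NC edgeR called 2 genes lower, Gfpt2 and Tnfaip6, beside 0.319% of all genes tested. In 8276KD against 5NC it called 0 of 64, beside 0.049%.

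Gfpt2 encodes an isoform of the rate-limiting enzyme of the hexosamine pathway, which leads to UDP-N-acetylglucosamine, the second sugar of hyaluronan (gene 14584, chr11:49794155-49838620, plus strand). It had 5.13, 4.39 and 5.87 CPM in 8276OV, 4.14, 5.44 and 5.36 CPM in 8276KD, 5.13, 5.39 and 4.42 CPM in 5NC and 9.32, 10.5 and 8.20 CPM in 3NC. As for Ugdh, every 3NC library lay above the other 9, a pattern not counted over all genes. The log2 fold change was −0.91 ± 0.17 in 8276KD against 3NC (edgeR adjusted p = 0.0474) and −0.91 ± 0.17 in 5NC against 3NC (adjusted p = 0.0294). It was 0.04 ± 0.17 in 8276OV against 5NC (adjusted p = 0.936). Over 19 alternatives the value stayed between −0.99 and −0.64 in 8276KD against 3NC, but the call held in 5 of them. Leaving out any library other than 8276OV replicate 3 ended the call in 8276KD against 3NC (adjusted p = 0.0506 to 0.339). In 5NC against 3NC it was lost without any 1 library of 5NC or 3NC or without 8276KD replicate 3 (adjusted p = 0.0541 to 0.179).

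The other genes of UDP-sugar supply passed the filter but were not called by edgeR in any of the 3 comparisons. In 8276KD against 3NC 11 of the 12 had log2 fold changes below 0, Gfpt2 included, with a list median of −0.14 against −0.002 over all genes tested. Some of these were near 0, as for Pgm3 (−7e-04 ± 0.16). By sign 8 of the 12 were also lower in 5NC against 3NC and 10 in 8276OV against 3NC. In 8276KD against 5NC 6 were lower and 6 higher. Gfpt1, the gene of the other isoform, averaged 180 CPM in 8276OV, 166 in 8276KD, 163 in 5NC and 184 in 3NC. Its log2 fold changes were 0.15 ± 0.09 in 8276OV against 5NC, −0.14 ± 0.09 in 8276KD against 3NC and −0.18 ± 0.09 in 5NC against 3NC. Ugp2, which makes UDP-glucose, the substrate of UGDH, had −0.29 ± 0.14 in 8276KD against 3NC (edgeR adjusted p = 0.764). It had −0.20 ± 0.14 in 5NC against 3NC and 0.19 ± 0.14 in 8276OV against 5NC. Uap1, which makes UDP-N-acetylglucosamine, had −0.20 ± 0.12 in 8276KD against 3NC and −0.28 ± 0.12 in 5NC against 3NC (adjusted p = 0.764 and 0.398). Of the other transferases that use UDP-glucuronate to build proteoglycan chains, 0 of 8 tested were called in any of the 3 comparisons. The chondroitin synthase gene Chsy3 had −0.88 ± 0.31 in 8276KD against 3NC (adjusted p = 0.671), and the chondroitin polymerizing factor Chpf 0.39 ± 0.17 in 8276KD against 3NC and 0.44 ± 0.16 in 5NC against 3NC (adjusted p = 0.764 and 0.362).

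**Figure D4:**
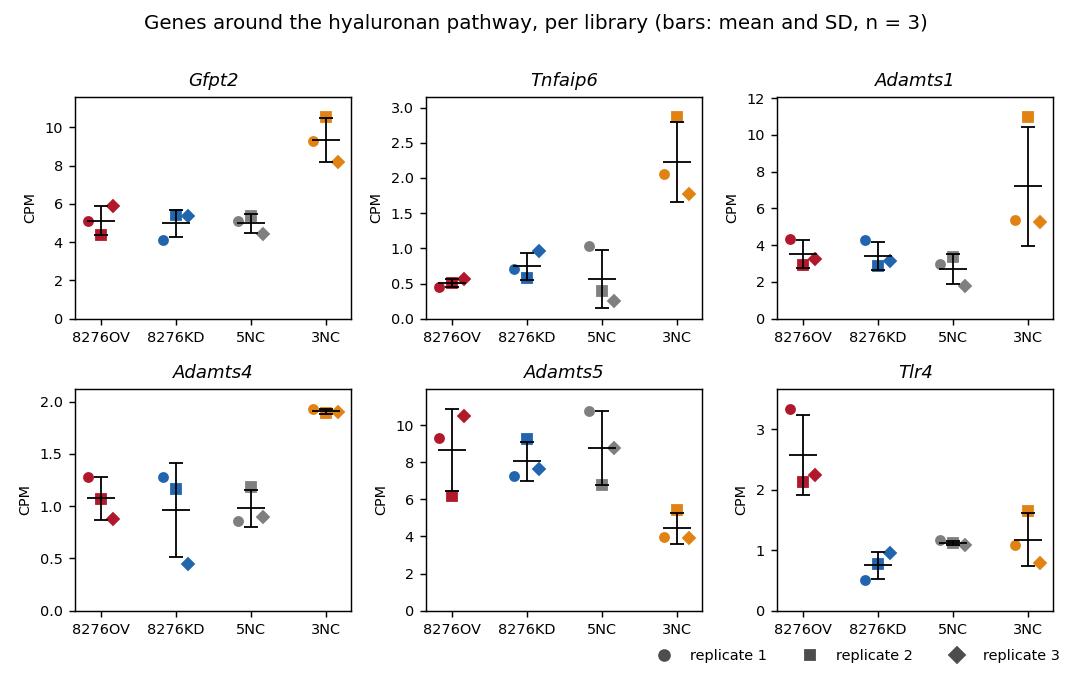
Level in CPM of 6 pathway genes in every library of 8276OV, 8276KD, 5NC and 3NC (symbols mark replicate numbers, bars the mean and SD of 3 libraries). Gfpt2, Tnfaip6, Adamts1 and Adamts4 are higher and Adamts5 is lower in each 3NC library than in every other library, and Tlr4 is highest in 8276OV.

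Of the 11 tested genes of the hyaluronan-binding matrix, 0 were called by edgeR in the 3 comparisons, with 1, 1 and 3 at an unadjusted p under 0.05, beside the shares of 10.4%, 6% and 12.1% over all genes. Tnfaip6 encodes TSG-6, which moves heavy chains of inter-alpha-inhibitor onto hyaluronan. It had 0.449, 0.501 and 0.562 CPM in 8276OV, 0.701, 0.583 and 0.956 CPM in 8276KD, 1.04, 0.394 and 0.256 CPM in 5NC and 2.06, 2.86 and 1.77 CPM in 3NC. Each 3NC library lay above the other 9. Its log2 fold change was −1.57 ± 0.39 in 8276KD against 3NC (edgeR adjusted p = 0.217) and −1.96 ± 0.4 in 5NC against 3NC (adjusted p = 0.0602), neither called by edgeR. In 5NC against 3NC it was called in 4 of 19 alternatives: DESeq2 (adjusted p = 0.0202), limma on FPKM (0.0346), edgeR with a filter at 1 CPM (0.0468) and edgeR without 5NC replicate 1 (−2.75, adjusted p = 0.0119); the highest adjusted p was 0.271. In 8276OV against 3NC it fell by 2.13 ± 0.41 (adjusted p = 0.0447). The link protein gene Hapln1, which fixes proteoglycans to hyaluronan, had 1.33 ± 0.61 in 8276OV against 5NC (adjusted p = 0.479), with overlapping groups.

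Proteases that cut versican lay on both sides in 3NC. Adamts1 averaged 3.41 CPM in 8276KD and 2.71 CPM in 5NC, against 7.20 CPM in 3NC, and its log2 fold changes against 3NC were −1.08 ± 0.3 in 8276KD and −1.41 ± 0.31 in 5NC (edgeR adjusted p = 0.409 and 0.0937). The 3NC mean held 1 high library, replicate 2 at 11 CPM, beside 5.40 and 5.25 CPM. Without that library the values were −0.64 in 8276KD and −0.96 in 5NC. Adamts4 averaged 0.962 CPM in 8276KD and 0.978 CPM in 5NC, against 1.91 CPM in 3NC, with −0.98 ± 0.33 in 8276KD and −0.96 ± 0.33 in 5NC (adjusted p = 0.618 and 0.329). Adamts5 averaged 8.06 CPM in 8276KD and 8.76 CPM in 5NC, against 4.45 CPM in 3NC, with 0.85 ± 0.22 in 8276KD and 0.98 ± 0.22 in 5NC (adjusted p = 0.304 and 0.111). None of the 9 genes of this list was called by edgeR in any of the 3 comparisons, and DESeq2 called Adamts1 and Adamts5 in 5NC against 3NC (adjusted p = 0.00701 and 0.0127).

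Among the receptors, Tlr4, an innate immune receptor reported to sense hyaluronan fragments, had 3.33, 2.13 and 2.25 CPM in 8276OV, against 1.16, 1.12 and 1.09 CPM in 5NC. Its log2 fold change was 1.19 ± 0.31 with groups that did not overlap, as was so for 15.2% of genes tested, and it was not called (edgeR adjusted p = 0.404). With replicate numbers as a block in a fit of 8276OV and 5NC alone, added after the data were seen, it was 1.17 (edgeR adjusted p = 0.0482). Tlr4 is itself found on macrophages, and the leukocyte marker sums given above for Cd44 run from 54.6 to 115.4 CPM in 8276OV and from 39.1 to 62.7 CPM in 5NC; their part in the Tlr4 value was not tested. Hmmr, the hyaluronan-mediated motility receptor, which also works at the spindle of dividing cells, averaged 24.7 CPM in 8276OV, 22.8 in 8276KD, 22.8 in 5NC and 27.1 in 3NC. Its log2 fold changes were 0.12, −0.25 and −0.25 ± 0.15 in 8276OV against 5NC, 8276KD against 3NC and 5NC against 3NC (adjusted p = 0.76, 0.764 and 0.495). Of the CD44 partners, Msn, the gene of the membrane linker moesin, had 0.63 ± 0.27 in 8276OV against 5NC (adjusted p = 0.444; with the block 0.60, adjusted p = 0.0439). Spp1, the CD44 ligand osteopontin, had 16.9, 1.58 and 4.16 CPM in 5NC, against 1.22, 3.53 and 1.38 CPM in 3NC, so that 1 library carried its log2 fold change of 1.88 ± 0.9 (adjusted p = 0.432).

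The sperm hyaluronidase genes were far more abundant than Hyal2. Spam1 averaged 43.7 FPKM in 8276OV, 38.1 in 8276KD, 37.7 in 5NC and 44.4 in 3NC, and Hyal6 averaged 38.4 FPKM in 8276OV, 31.9 in 8276KD, 29.3 in 5NC and 37 in 3NC. Hyal6 had 0.41 ± 0.11 in 8276OV against 5NC (edgeR adjusted p = 0.404) and −0.36 ± 0.11 in 5NC against 3NC (adjusted p = 0.289). With the block added after the data were seen, Hyal6 had 0.39 in 8276OV against 5NC (edgeR adjusted p = 0.0167). Hyal5 had 0.28 ± 0.12 in 8276OV against 5NC and −0.37 ± 0.12 in 5NC against 3NC (adjusted p = 0.452 and 0.303). Both stood lowest in 5NC by mean, and edgeR without the block called neither. Hyal1, a lysosomal hyaluronidase, had −0.72 ± 0.3 in 8276OV against 5NC (adjusted p = 0.444). Hyal5, Hyal6 and Spam1 are related genes, so reads could be shared between them.

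**Figure D5:**
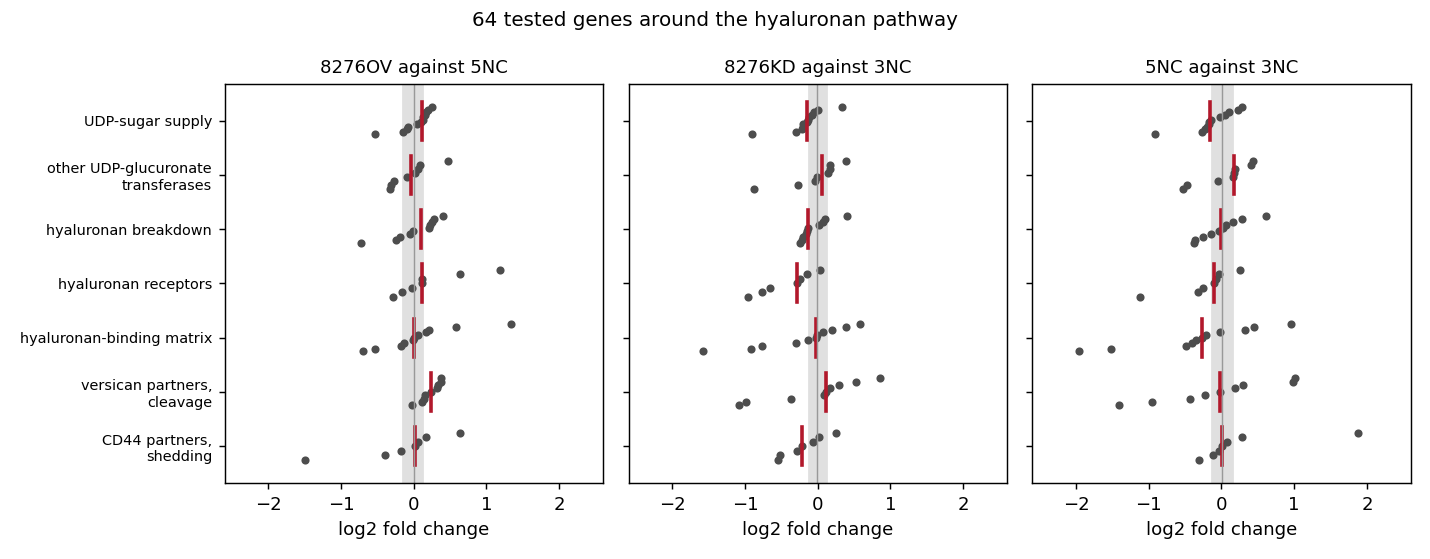
Log2 fold changes of the 64 tested pathway genes (points) by list, with the list median (red bar), for 8276OV against 5NC, 8276KD against 3NC and 5NC against 3NC; the grey band runs from the lower to the upper quartile of all genes tested. List medians lie between −0.28 and 0.24, and single genes such as Gfpt2 and Tnfaip6 stand far to the left in both comparisons with 3NC.

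Among 15209 genes with a mean of at least 1 CPM, the 6 most like Ugdh over the 12 libraries by Pearson correlation of log2 CPM included Bhlhe40 (r = 0.955), Bach1 (0.951), Emp1 (0.951), Gfpt2 (0.949) and Socs3 (0.942). Bhlhe40 and Bach1 are transcription factors, Emp1 is a membrane protein and Socs3 is a feedback inhibitor of cytokine signalling. These 5 genes had their highest group mean in 3NC. This follows largely from the choice, since they were picked for likeness to Ugdh, which is high in 3NC. The libraries share their groups, and over the 9 libraries without 3NC the correlations with Ugdh were 0.601 for Bhlhe40, 0.513 for Bach1, 0.757 for Emp1, 0.563 for Gfpt2 and 0.508 for Socs3. None of these 5 was then among the 6 most like Ugdh. Among the genes that passed the filter, Ugdh and Cd44 had r = 0.449 over the 12 libraries and 0.374 over the 9 without 3NC. Over the 12, Ugdh had r = 0.091 with Has3, 0.104 with Hyal2 and 0.133 with Vcan. Over the 9 these were 0.283, 0.595 and 0.329.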

How the data were processed

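Per the file headers, the authors deposited an expected count for each gene and library, without normalisation. Most of these counts (88%, tolerance 1e-06) are whole numbers, and the rest were rounded here. The second set of values deposited by the authors was taken as FPKM, inferred from its relation to counts and library totals. The genome build was mm10, per the submitters' processing notes. Aligner, counting program, annotation and strandedness: not given in the sources used here. A further 18 per-sample columns, of other libraries, were not used.

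Tests on the counts used edgeR 4.0.16 under R 4.3.3 (robust quasi-likelihood fit, TMM, 1 fit of 4 groups without covariates). The function filterByExpr (minimum count 10, minimum total 15) left 16320 genes, and adjustment was by Benjamini-Hochberg over all of them. The SE is the absolute log2 fold change divided by the root of F, and fold changes carry a prior count of 0.125. CPM used TMM-scaled library sizes. The scripts were tested on simulated data. Alternatives used DESeq2 1.42.0, limma 3.58.1 on log2(FPKM + 1), other filters and size factors, a replicate block, the other control, 2 groups only, and each library left out. Figures were drawn with matplotlib 3.10.9. Of the gene identifiers, 20564 matched the reference gene table of the mm10 assembly.

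The 7 genes, the pathway lists, the marker lists and the tests were chosen with earlier results of these data known. Named pathway genes are those called in any comparison, up to 4 of smallest p in each list, Spam1, Hyal5 and Hmmr. The text gives part of the second set, and Gfpt1 was added as the other isoform beside Gfpt2. Of the 6 genes most like Ugdh, 5 are named. Some items covered by these rules are not reported here.

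Replicate numbers come from the sample titles. For 8276OV and 5NC, libraries sharing a number had deviations from their group means that correlated at r = 0.165, 0.149 and 0.109, which meets a rule of more than 0.1 in every pair, so a block for these 6 libraries was added after the data were seen. Between 8276KD and 3NC r was 0.008, 0.031 and 0.056, and between 5NC and 3NC it was −0.034, 0.006 and 0.021.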

Additional observations from a re-analysis of the deposited data

How the results depend on the processing

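Ugdh kept its direction in every alternative of 8276KD against 3NC and of 5NC against 3NC (19 each), and its call in 19 and 18 of them. These counts describe only the effect of processing, since Ugdh was chosen with its levels known and the alternatives reuse the same libraries. Leaving out 1 library gave log2 fold changes of −1.77 to −1.44 in 8276KD against 3NC, −1.65 to −1.31 in 5NC against 3NC and −0.05 to 0.37 in 8276OV against 5NC. With limma on log2(FPKM + 1), a scale that shrinks low genes, Ugdh had −1.25 in 8276KD and −1.16 in 5NC against 3NC. Against the other control it had −1.38 in 8276OV, there called, and −0.12 in 8276KD, not called. In 8276OV against 3NC Gfpt2 (−0.87, reversed in sign) and Tnfaip6 (−2.13) were called too. The genes called in 8276OV against 5NC numbered 0, 46 with DESeq2, 52 against 3NC and 0 to 5 without 1 library. In 8276KD against 3NC they numbered 29, 71 with DESeq2, 8 against 5NC and 10 to 34 without 1 library. In 5NC against 3NC they numbered 59, 147 with DESeq2, 32 with limma on FPKM and 16 to 76 without 1 library.

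Pathway genes called in any comparison numbered 1, and 2 with a filter at 1 CPM, 4 with DESeq2, 0 with only the 2 groups compared, 2 against the other controls and 0 to 1 without 1 library. The planned replicate block in the fit of 4 groups called 0 pathway genes and kept both Ugdh calls (−1.66 and −1.54). In 8276OV against 5NC, deviations of libraries sharing a replicate number correlated above 0.1. Libraries with different numbers were not compared, so whether the numbers mark pairs was not tested. A replicate block in a fit of those 6 libraries, an alternative added once the data had been seen, called 215 genes and 0 of the 7 genes. It brought the pathway count to 4 with Hyal6, Msn and Tlr4. Of the 6 genes most like Ugdh, 2 stayed without 3NC replicate 2, 1 by Spearman correlation and 0 without 3NC. Classes were given to values of Has3, Hyal2, Cd44, Vcan, Gfpt2, Tnfaip6, Adamts1, Adamts4, Adamts5 and Tlr4 over the alternatives. The first 4 were classed by the size of the shift against the SD, the others by sign and call. In all, 559 values were classed as the same, 25 lost a call and 8 gained a call. All 25 lost calls were of Gfpt2, the only gene of these called in the main fit. A further 1 (Gfpt2, above) reversed and 1 moved (Cd44 in 8276KD against 3NC, −0.20 with limma on FPKM). Cd44 was called in 0 of 18 alternatives there, so the classes do not rest on calls alone. Values classed as the same may also differ in sign where not called, as for Hyal2 in 8276OV against 5NC (−0.382 to 0.235). The cause of these shifts was not tested. Has1 and Has2 had too few reads to be tested.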
